A study of Mus musculus with 9 samples.

Results

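The time course described here comprised 5 of the 9 arrays of a 4C-on-chip study of the mouse Dbp locus. They were chosen by their labels as replicate 1 of wild-type (WT) cells at circadian time (CT) 22, 26, 30, 34 and 46 h, with 1 array a time. All 5 arrays came from WT line 1, a culture of mouse embryonic fibroblasts made from embryos of embryonic day 13 with head and liver removed. The cells were pulsed with dexamethasone for 2 h, washed, and harvested at the hour that gives each circadian time. Line 1 grew in DMEM with newborn calf serum, heat-inactivated fetal serum and amino acids. The other 4 arrays were used only for comparison: WT line 2, an independent culture from another mating, at CT22 and CT34, and a Bmal1-/- line, from siblings of line 1, at the same times. Both had the same 2 h pulse. Each line is a single culture, and no time of line 1 was repeated, so the spread between arrays joins time, harvest, 4C template and hybridization. The arrays hold DNA contacts and no expression, so the cell type was not checked here.

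Dbp encodes a transcription factor of the PAR bZIP family whose own transcription is driven by the circadian clock. The activator BMAL1, with its partner CLOCK, binds the gene rhythmically, and repressors of the PER and CRY families close the loop about once a day. Dexamethasone activates the glucocorticoid receptor and aligns the clocks of cultured fibroblasts, so that a later harvest samples a later phase. In 4C, DNA that lay near a chosen locus (the viewpoint) in crosslinked nuclei is ligated to it and amplified by inverse PCR, and the array then shows which regions were captured. Contacts on the viewpoint's own chromosome are as a rule denser, and a given region of another chromosome is contacted more rarely. CT22 and CT46 lie 24 h apart and so share a phase of the cycle, whereas CT34 lies 12 h from each. No array lay between CT34 and CT46, so the 12 h between them was not sampled. The design therefore asks which contacts stayed the same at the sampled times, which varied, and whether arrays of the same phase resembled each other most.

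Each array gave a log2 ratio of 4C DNA to genomic DNA for 384942 probes of 59 nt, with 365587 of them on other chromosomes than 7 and 19355 on 7. Neighbouring probes started 5037 bp apart (median). Within each array the probes were ranked from 0 (lowest) to 100 (highest), and ranks were averaged in windows of 250 kb (9982 windows, median 39 probes) and 1 Mb (2518 windows, median 156 probes). The signal peaked at chromosome 7, 45200001 to 45300000, on all 5 arrays, in the coordinates of the files, for which no source used here names a genome build. Of the windows of 250 kb, 519 lay on chromosome 7, and 503 of these were more than 2 Mb from the peak. Of the probes in the top 5% of an array, 31.3% lay on chromosome 7 at CT22 (95% exact interval 30.6 to 31.9), 31.4% at CT26 (30.7 to 32.0) and 32.1% at CT30 (31.4 to 32.8). The share was 29.9% at CT34 (29.2 to 30.5) and 31.3% at CT46 (30.6 to 31.9). The share was thus lowest at CT34. The intervals cover counting error only, with probes treated as independent. With 1 array a time they do not measure the spread between arrays, so a gap between them is no test of time.

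The contact profile of chromosome 7 had the same shape at all 5 times. Windows within 2 Mb of the peak had a mean rank of 94.98 at CT22, 94.5 at CT26, 94.6 at CT30, 94.6 at CT34 and 94.3 at CT46. The signal did not decay evenly with distance. Of the probes 2 to 5 Mb away, between 27.5% and 29.2% were in the top 5%, and of those 5 to 10 Mb away between 19.1% and 20.9%. The share was higher again farther out, at 31.6% to 33.9% for 10 to 20 Mb, 29.3% to 31.3% for 20 to 50 Mb and 28.7% to 31.5% for 50 to 100 Mb. Off chromosome 7 it lay between 3.59% and 3.70%. Beyond 2 Mb, the ranges at 5 to 10 Mb and at 10 to 20 Mb did not overlap those of any other distance class. The range at 50 to 100 Mb overlapped those at 2 to 5 Mb and 20 to 50 Mb. The 5 times differed within a class by at most 3.33 percentage points.

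**Figure D1:**
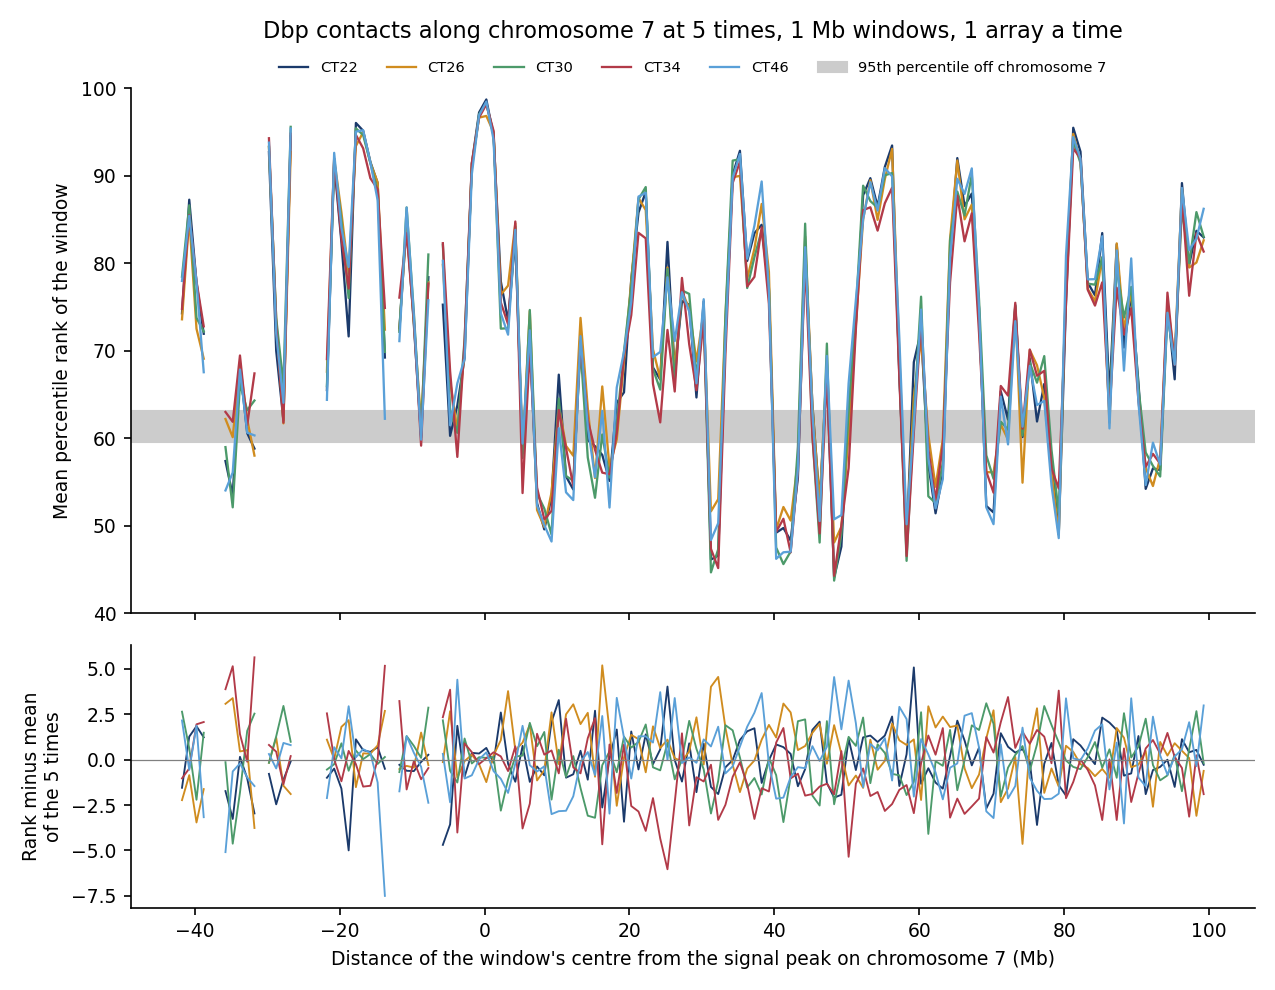
Mean percentile rank of 1 Mb windows of chromosome 7 against the signed distance of their centre from the signal peak, 1 line per time (1 array each), with each time's deviation from the mean of the 5 times below. Lines break where windows held too few probes, and the grey band spans the 5 arrays' 95th percentiles of windows off chromosome 7 (59.6 to 63.1). The 5 profiles overlay, and the CT34 line lies mostly below 0 in the lower panel on the distal side.

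Constant contacts were defined as windows that exceeded, at all 5 times, the 95th percentile of windows off chromosome 7 on the same array. On chromosome 7 this held for 285 of 519 windows of 250 kb (54.9%) and for 85 of 133 windows of 1 Mb (63.9%). A further 153 windows of 250 kb exceeded it at no time, which left 81 that did so at 1 to 4 times. All 16 windows within 2 Mb of the peak were constant. The share was lowest 5 to 10 Mb away, where 9 of 37 windows were constant and 20 were never above the threshold. It was 11 of 22 at 2 to 5 Mb, 36 of 72 at 10 to 20 Mb, 92 of 174 at 20 to 50 Mb and 121 of 198 at 50 to 100 Mb. Most chromosome 7 windows were thus either always or never in the class, with few that switched.

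Outside the peak region the constant windows of chromosome 7 formed 47 runs of adjoining windows, and the longest held 27. The run with the highest lowest rank lay at 15000001 to 16250000, 29.6 Mb from the peak, with a rank of 92.7 at CT22, 92.9 at CT26, 93.0 at CT30, 93.7 at CT34 and 93.6 at CT46. It ranked nearly as high as the peak region itself, and its order of times held no gap larger than 1 rank. The next run, at 37500001 to 38000000, had ranks of 90.5, 90.4, 92.4, 88.9 and 89.6 in the same order of times. The run at 26250001 to 31250000, of 20 windows and 647 probes, stayed between 88.8 (CT34) and 90.0 (CT26). Runs at 23750001 to 25750000 and at 125250001 to 128750000, the last 81.8 Mb from the peak, stayed between 87.6 and 89.1 and between 87.5 and 89.9. The longest run, at 95750001 to 102500000, had 86.2 at CT22, 85.1 at CT26, 85.8 at CT30, 83.4 at CT34 and 85.8 at CT46. In the 5 named runs the Bmal1-/- arrays also ranked high, between 84.6 and 91.0, and the arrays of line 2, with only 17.9% and 20.4% of their top 5% probes on chromosome 7, between 64.4 and 76.2.

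Off chromosome 7, 882 of 9463 windows of 250 kb were in the top 5% at 1 time or more. Only 176 of them (1.86% of all windows there) were so at all 5 times, 123 at 4, 127 at 3, 161 at 2 and 295 at a single time. In windows of 1 Mb the share of constant windows among those ever in the top 5% was larger, at 75 of 180 (3.14% of the 2385 windows). Of the 295 windows seen once, 81 were seen at CT26 alone, against 42 at CT22, 56 at CT30, 63 at CT34 and 53 at CT46. Since each array contributes 474 windows, the times differ here only in how much they share with the others. The shares on and off chromosome 7 do not compare how steady contacts were, since the threshold was set off chromosome 7. It was 62.2 to 65.1 in 250 kb windows, below the mean rank of chromosome 7 beyond 2 Mb (70.3 to 71.3). The SD over time was alike, at 3.37 off chromosome 7 and 3.56 on it beyond 2 Mb.

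The constant contacts off chromosome 7 were spread unevenly over chromosomes. Chromosome 11 held 32 of its 475 windows, chromosomes 15, 17 and 19 held 18 each, and chromosome 9 held 16. By share, chromosome 19 was highest (7.76%), followed by chromosome 11 (6.74%), chromosome 17 (4.93%) and chromosome 15 (4.48%). Chromosomes 1, 12, 13 and 14 held 1 constant window each, and chromosome 20, a sex chromosome numbered as in the files, held 0 of 579. Chromosomes 11, 15, 17 and 19 also had more of their probes in the top 5% than the off-chromosome-7 average at every time. On chromosome 19 the share was 6.55% at CT22, 6.63% at CT26, 6.59% at CT30, 6.14% at CT34 and 5.86% at CT46. On chromosome 20 it was 2.00%, 1.65%, 2.03%, 2.196% and 1.86%. The ranges of chromosomes 19 and 20 over time did not overlap, so the gap between them was larger than the spread over time.

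The longest constant run off chromosome 7 covered 12 windows of chromosome 19, from 3500001 to 6500000, with a mean rank of 74.5 at CT22, 71.1 at CT26, 73.7 at CT30, 70.9 at CT34 and 73.8 at CT46. The run with the highest lowest rank was 79000001 to 80750000 on chromosome 10, with 79.1, 75.5, 78.2, 73.1 and 77.1 in the same order. CT34 was the lowest time in both. A run at 7000001 to 7500000 on chromosome 19 ranged from 72.5 (CT22) to 81.3 (CT30), one at 34250001 to 34750000 on chromosome 17 from 72.2 (CT26) to 78.5 (CT30), and one at 46000001 to 46500000 on chromosome 19 from 71.9 (CT46) to 74.3 (CT26). The run at 120000001 to 120750000 on chromosome 11 ranged from 71.7 (CT46) to 76.3 (CT26). The highest time thus differed from run to run. These 5 best runs ranked below those of chromosome 7 at every time, and 84 of the 113 runs off chromosome 7 were a single window.

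**Figure D2:**
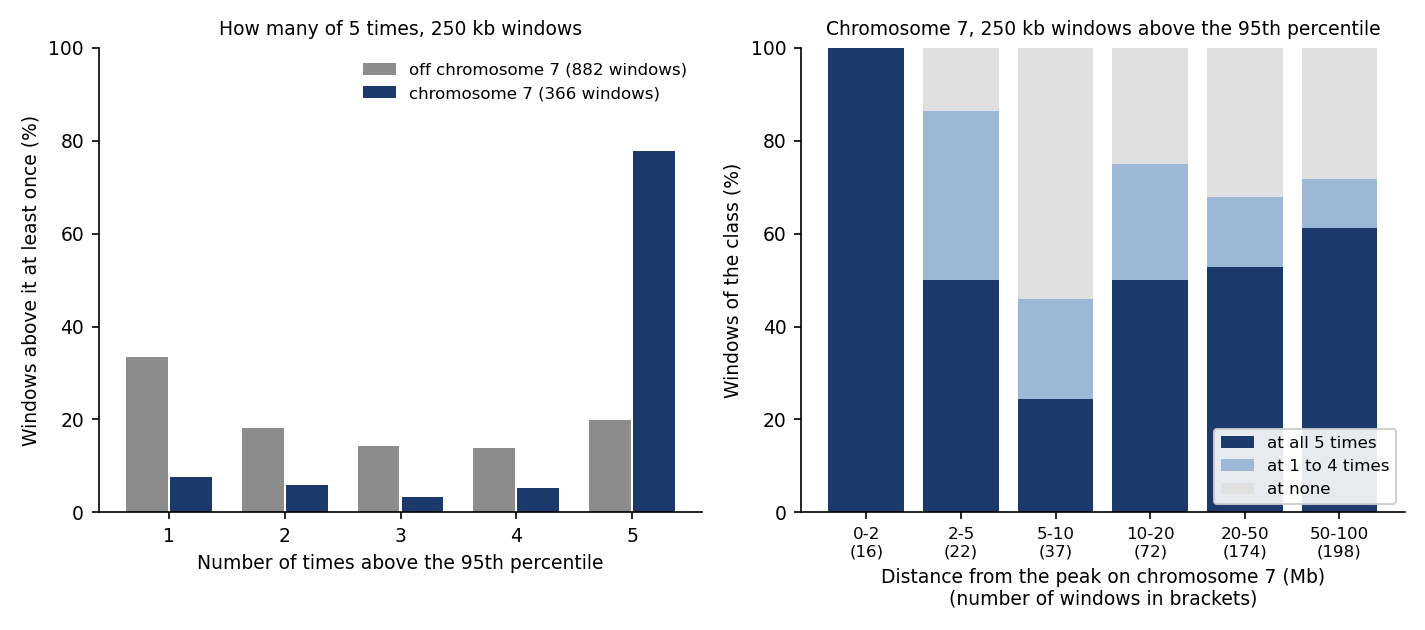
Left, share of the 250 kb windows that exceeded the 95th percentile at least once, by the number of times (of 5) at which they did, off chromosome 7 (grey) and on it (blue). Right, share of chromosome 7 windows above it at all, some or none of the 5 times, by distance from the peak. On chromosome 7, 77.9% of the windows ever above the threshold were above it at all 5 times, against 20.0% off it.

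Variation over time was small beside the differences between windows. Off chromosome 7 the SD of a window's rank over the 5 times was 3.37 (root mean square over 9463 windows of 250 kb), and 83.6% of the variance lay between windows. The scatter of probes within windows alone would give an SD of 3.11, so the variance over time was 1.18 times that of probe scatter. On chromosome 7 beyond 2 Mb the SD was 3.56 against 3.26 from probe scatter, a variance ratio of 1.19, and 94.9% of the variance lay between windows. Within 2 Mb of the peak the ratio was 0.871. In 1 Mb windows, where probe scatter averages out, the ratio was 1.58 off chromosome 7 (SD 1.95 against 1.56) and 1.56 on it (2.05 against 1.64). The variance over time thus exceeded that of probe scatter by little in 250 kb windows and by more in 1 Mb windows.

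In 250 kb windows the most variable distance class was 2 to 5 Mb from the peak, with a variance ratio of 1.38 and a median range over the 5 times of 10.7 ranks, against 7.20 for chromosome 7 beyond 2 Mb as a whole. The class holds 22 windows. At 1 Mb its ratio was 1.35 (6 windows), below those at 10 to 20 Mb (1.70), 20 to 50 Mb (1.57) and 50 to 100 Mb (1.63). Off chromosome 7 the ratio ran from 1.104 on chromosome 19 to 1.24 on chromosome 5. With chromosome 7 windows split by mean rank into 5 equal classes, the highest class had a median SD over time of 1.60, against 3.49, 3.60, 3.75 and 2.86 in the other 4, from the lowest up. Ranks end at 100, which limits how far the strongest contacts can move on this scale.

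The agreement of 2 arrays was measured as Pearson's r over windows. It is a description, since windows share hybridizations, both arrays of a pair hold the same probes and their effects, and pairs share arrays. Off chromosome 7, over 9463 windows of 250 kb, r was 0.863 for CT22 with CT46, 0.862 for CT22 with CT34 and 0.850 for CT34 with CT46. The 24 h pair took place 4 of the 10 pairs, after CT30 with CT34 (0.884), CT30 with CT46 (0.882) and CT22 with CT30 (0.875). The exact permutation test over the 10 ways to choose the 24 h pair gave a one-sided p of 0.4. The smallest p this design allows is 0.1. Over the 2385 windows of 1 Mb off chromosome 7, r was 0.947 for CT22 with CT46, 0.941 for CT22 with CT34 and 0.931 for CT34 with CT46, the 24 h pair took place 3 of 10, and the exact permutation p was 0.3. By the mean absolute rank difference CT22 was nearer to CT34 than to CT46, at 3.43 against 3.48 in 250 kb windows and 1.874 against 1.879 in 1 Mb windows. At 250 kb the difference in r between the 24 h pair and CT22 with CT34 also turned sign with Spearman's rho (-0.0013) and with no minimum of probes (-0.0089). Off chromosome 7 the order of CT22 with CT46 and CT22 with CT34 thus depended on the measure, and pairs 4 or 8 h apart in phase had a higher r than either. Of the 474 windows in the top 5% of each array, CT22 shared 324 with CT46 (68.4%) and 311 with CT34 (65.6%), and the smallest overlap was 278, between CT26 and CT34 (58.7%).

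On chromosome 7 beyond 2 Mb the 24 h pair stood higher. Over 503 windows of 250 kb, r was 0.959 for CT22 with CT46, against 0.9496 for CT22 with CT34 and 0.940 for CT34 with CT46. Only CT22 with CT30 was higher (0.960). Over 129 windows of 1 Mb the values were 0.982, 0.974 and 0.964, again second after CT22 with CT30 (0.983). The mean absolute rank difference placed the 24 h pair first of 10 at both sizes: it was 3.45 at 250 kb and 1.96 at 1 Mb, against 3.87 and 2.44 for CT22 with CT34 and 4.24 and 2.89 for CT34 with CT46. The exact permutation p for r was 0.2 at both sizes, and adjusted over the 4 comparisons of this kind (Benjamini-Hochberg) all 4 were 0.4. The pair CT34 with CT46 was the lowest of all 10 at 1 Mb and the second lowest at 250 kb. With no minimum of probes the 24 h pair took place 5 at 250 kb and place 7 at 1 Mb, where its r exceeded that of CT22 with CT34 by only 0.0004546.

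**Figure D3:**
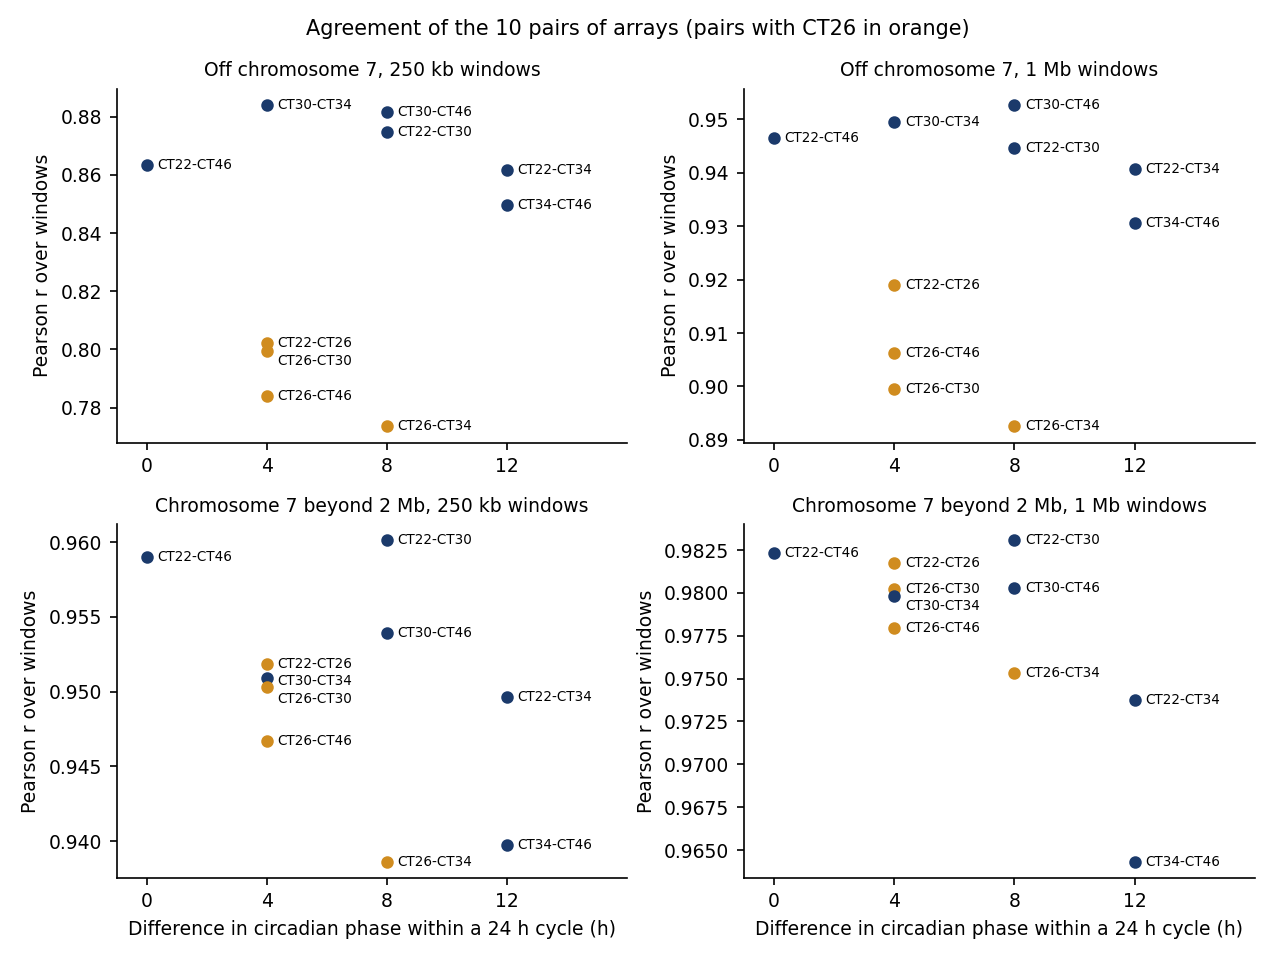
Pearson's r over windows for each of the 10 pairs of arrays, against the pair's difference in phase within a 24 h cycle, off chromosome 7 (top) and on chromosome 7 beyond 2 Mb (bottom), for 250 kb (left) and 1 Mb (right) windows; axes do not start at 0. Off chromosome 7 the 4 pairs with CT26 (orange) are the 4 lowest, and on chromosome 7 the 24 h pair is second of 10.

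By distance class in 250 kb windows, r of CT22 with CT46 minus r of CT22 with CT34 was -0.013 within 2 Mb (16 windows), 0.0079 at 2 to 5 Mb (22), 0.046 at 5 to 10 Mb (37) and -0.014 at 10 to 20 Mb (72). It was 0.0082 at 20 to 50 Mb (174) and 0.0084 at 50 to 100 Mb (198). The sign thus changed from class to class. At 5 to 10 Mb the value came from the lowest of all 10 pairs being CT22 with CT34 (0.873), while the 24 h pair (0.918) took place 7. At 10 to 20 Mb CT22 with CT34 was the highest pair (0.962). By mean absolute rank difference the 24 h pair was first at 20 to 50 Mb (3.27, against 3.64 for CT22 with CT34) and second at 50 to 100 Mb (3.22 against 3.99). It was farther apart than CT22 with CT34 within 2 Mb (1.32 against 0.985) and at 10 to 20 Mb (3.995 against 3.32). In 1 Mb windows the difference in r was 0.013 at 20 to 50 Mb and 0.0036 at 50 to 100 Mb, where the 24 h pair was first, and -0.010 at 10 to 20 Mb, where it was ninth.

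Chromosome by chromosome, r of the 24 h pair exceeded that of CT22 with CT34 on 9 of 19 chromosomes in 250 kb windows and on 15 of 19 in 1 Mb windows. The 250 kb count rested on the setting, at 17 with log2 ratios, 15 across odd and even probes and 14 with shifted windows. The same count for CT30 with CT46, which lie 8 h apart in phase, was 19 of 19 at both sizes. For CT30 with CT34 it was 18 and 17, and for CT22 with CT30 it was 17 and 16. The 4 pairs with CT26 reached 0 of 19 at 250 kb and at most 2 of 19 at 1 Mb. The 24 h pair was the highest of the 10 on 0 chromosomes at 250 kb and on 4 at 1 Mb, namely chromosomes 13, 15, 17 and 19. The largest gap in favour of 24 h was on chromosome 13 in 1 Mb windows (0.890 against 0.829), where at 250 kb it was only 0.763 against 0.756. The largest gap the other way was on chromosome 20 (0.740 against 0.779 at 250 kb, 0.853 against 0.874 at 1 Mb). Chromosomes are not replicates of the arrays, so no count here is a test.

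**Figure D4:**
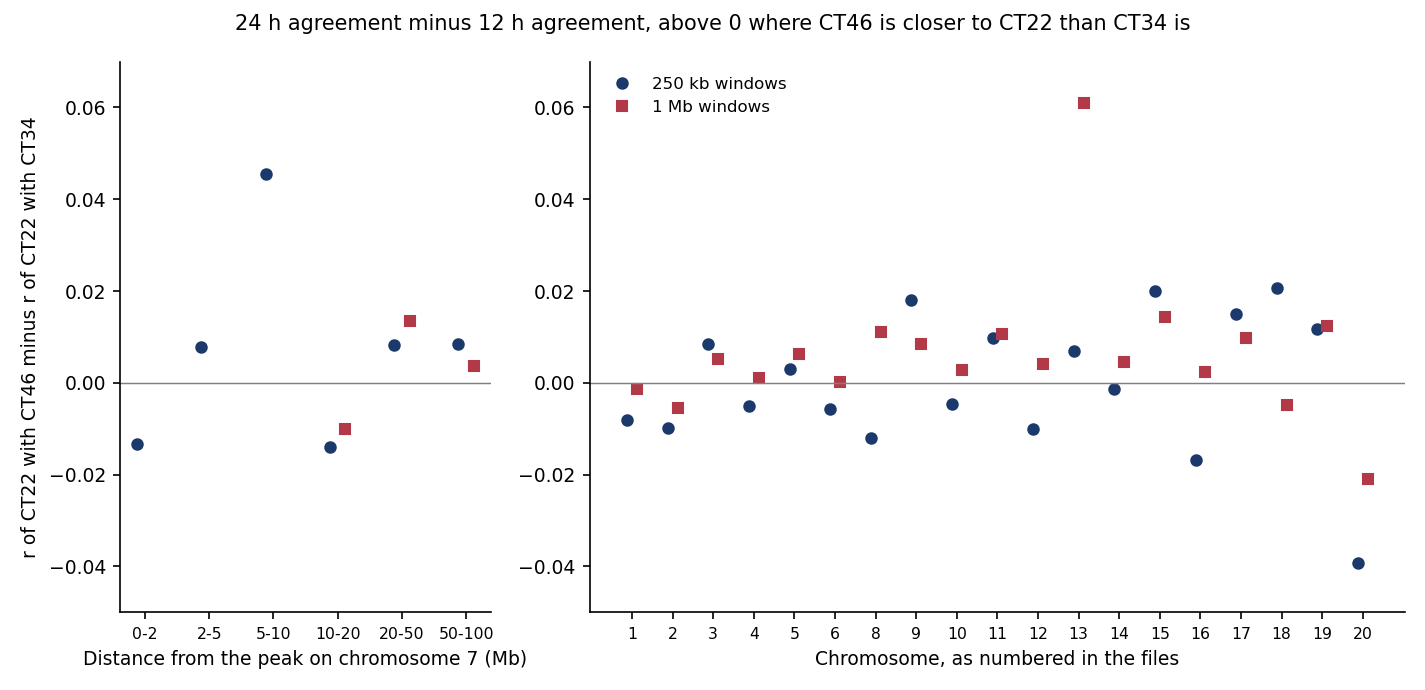
Pearson's r of CT22 with CT46 minus that of CT22 with CT34, by distance class on chromosome 7 (left, only classes of at least 10 windows) and by chromosome (right), for 250 kb windows (circles) and 1 Mb windows (squares). Values lie on both sides of 0, with 9 of 19 chromosomes above it at 250 kb (17 with log2 ratios) and 15 of 19 at 1 Mb.

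CT26 had the lowest agreement with the other 4 times off chromosome 7. Its mean r with them was 0.790 in 250 kb windows, against 0.842 to 0.860 for the other arrays, and 0.904 in 1 Mb windows, against 0.928 to 0.938. On chromosome 7 beyond 2 Mb the lowest array was CT34 instead (0.945 at 250 kb, with CT26 at 0.947 and the others between 0.9499 and 0.955). The windows off chromosome 7 also had the narrowest spread at CT26, with an SD of 7.28 ranks between 250 kb windows, against 8.24 at CT22, 9.004 at CT30, 8.32 at CT34 and 8.66 at CT46. Odd and even probes of the same windows correlated least at CT26 (0.440, against 0.545 at CT22, 0.609 at CT30, 0.548 at CT34 and 0.584 at CT46). The array of CT26 is named in another style in the labels than the other 4, which it shares with the Bmal1-/- arrays. On this design the time and the array cannot be told apart.

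Different probes of the same windows showed how much of the agreement does not rest on shared probes. Between CT22 and CT46, odd probes of one array with even probes of the other gave r = 0.554 over the 9463 windows of 250 kb off chromosome 7, against 0.863 with all probes on both sides. For CT22 with CT34 it was 0.531. The within-array value for CT22 was 0.545, so 2 arrays at different times correlated across probe sets about as well as 1 array did within itself. The agreement across probe sets was then divided by the geometric mean of the 2 arrays' own odd-even r. It was 0.983 for CT22 with CT46, 0.973 for CT22 with CT34 and 0.966 for CT34 with CT46. These were places 3, 7 and 9 of 10 in that order. The 4 pairs with CT26 were no longer the 4 lowest: CT22 with CT26 (0.985) took place 2, CT26 with CT46 (0.976) place 6, CT26 with CT30 (0.971) place 8 and CT26 with CT34 (0.947) place 10. On chromosome 7 beyond 2 Mb these ratios ran from 0.987 (CT34 with CT46) to 1.01 (CT22 with CT26) at 250 kb, and the 24 h pair (0.995) took place 6. Values near 1 say that nearly all of the reproducible order of windows was shared between times.

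The differences between times were themselves only weakly shared by different probes. Off chromosome 7, the change from CT22 to CT46 in odd probes correlated at 0.054 with that in even probes of the same 250 kb windows, and the change from CT22 to CT34 at 0.075. The largest value was 0.140, for CT26 with CT30. In 1 Mb windows the values were 0.114 for CT22 to CT46, 0.144 for CT22 to CT34, 0.231 for CT34 to CT46 and 0.383 for CT26 to CT30. On chromosome 7 beyond 2 Mb, in 129 windows of 1 Mb, the change from CT22 to CT34 correlated between probe sets at 0.423 and that from CT34 to CT46 at 0.290, against 0.073 for CT22 to CT46. So at this scale the changes that involved CT34 were more alike between probe sets than the 24 h change was. This was not particular to CT34. Without CT34, CT22 to CT30 (0.195), CT22 to CT26 (0.176), CT26 to CT30 (0.168) and CT30 to CT46 (0.079) were also above the 24 h change. CT26 to CT46 (0.065) was below it. CT26 to CT34 (0.176) was no higher than CT22 to CT26. At 10 to 20 Mb (19 windows) the 24 h change (0.4403) was above CT22 to CT34 (0.1203), CT30 to CT34 (0.3409) and CT34 to CT46 (0.4057). It was below CT26 to CT34 (0.5502).

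CT34 also differed from CT22 and CT46 by side of the peak on chromosome 7, a pattern seen after the values were examined. On the proximal side (lower coordinates, 31 windows of 1 Mb beyond 2 Mb) the mean rank was 74.8 at CT22, 75.7 at CT26, 75.9 at CT30, 76.4 at CT34 and 75.1 at CT46. On the distal side (98 windows) it was 69.3, 69.8, 69.2, 68.3 and 69.4. CT34 was thus the highest time on the proximal side and the lowest on the distal side, by 1.45 and -1.05 ranks against the mean of CT22 and CT46, while CT46 and CT22 differed by 0.351 and 0.0907. Of the 98 distal windows 42 had their lowest rank at CT34, against 9 to 19 at each other time. Beyond 20 Mb on that side it was 39 of 80. Of the 31 proximal windows 12 had their highest rank at CT34, against 9 at CT30. In 250 kb windows CT34 was highest in 28 of 114 proximal windows, against 31 for CT30, and lowest in 27. On the distal side it was lowest in 127 of 389. At 1 Mb the proximal difference was 0.449 ranks with at least 120 probes a window. It was -0.702 percentage points in the share of top 5% probes, so its sign depended on the measure. The distal difference was below 0 in all 11 alternatives tried at 1 Mb, but it was only -0.241 with chromosome 7 ranked separately and -0.0030 on the log2 scale. With 1 array a time it has no replicate check. Line 2 and Bmal1-/- were higher at CT34 than at CT22 on both sides, by 1.03 and 0.801 ranks on the proximal side, where line 1 was higher too, and by 1.21 and 1.42 on the distal side, where line 1 was lower.

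Window by window, CT22 and CT46 served as the only pair of arrays of 1 phase, and limma tested whether the 4 phases differed by more than the spread of that pair, pooled over windows. Of 9982 windows of 250 kb, 27 (0.27%) had an adjusted p under 0.05 (F test, Benjamini-Hochberg over all windows), 4 of them on chromosome 7. At an unadjusted p under 0.05 there were 1001 windows, where 499.1 would be reached by chance. The array farthest from the median was CT26 in 11 of the 27 and CT34 in 9. The fit has 1 residual degree of freedom, assumes that the lone arrays vary as that pair does, and measures only the spread between arrays, which may be technical. Without the CT26 array it called 9 windows, and 507 had an unadjusted p under 0.05, close to the number chance gives. At 1 Mb limma called 0 of 2518 (0%), with 345 at an unadjusted p under 0.05 against 125.9 by chance, and 167 without the CT26 array. Both counts of calls rested on the setting. With log2 ratios, window medians or shifted windows the 250 kb count was 0, while the 1 Mb count was 54 with log2 ratios, 61 with separate ranking of chromosome 7 and 40 with shifted windows.

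The contrast of CT34 with the mean of CT22 and CT46 gave 6 windows of 250 kb (0.0601%), 4 of them on chromosome 7 and 3 of the 6 higher at CT34, and 0 windows of 1 Mb (0%). At an unadjusted p under 0.05 there were 581 and 194 windows. None of the 6 calls was left with log2 ratios, window medians or shifted windows, each of which gave 0, and the 1 Mb count was 16 with log2 ratios and 8 with separate adjustment on chromosome 7. At 250 kb limma shrank every window's variance fully to a common one, so the SE was 3.85 ranks in all windows, and neither a window's own gap between CT22 and CT46 nor its number of probes entered its p. The strongest lay on chromosome 7 at 39000001 to 39250000, 6.12 Mb from the peak, with 16 probes and ranks of 55.7 at CT22, 82.3 at CT26, 79.0 at CT30, 84.7 at CT34 and 67.4 at CT46. It was high at CT26, CT30 and CT34 and lower at CT22 and CT46, which share a phase. CT34 exceeded the mean of CT22 and CT46 by 23.2 ranks (SE 3.85, limma adjusted p = 1.79e-05). The window's ranks at CT22 and CT46 still differed by more than 10. The window at 9750001 to 10000000, with 15 probes, had 61.4, 68.4, 64.5, 74.7 and 49.7 (difference 19.2, adjusted p = 0.00236, limma). The window at 13000001 to 13250000, with 26 probes, had 54.6, 53.6, 57.2, 73.2 and 59.6 (difference 16.1, adjusted p = 0.0480, limma), so that CT34 alone stood above the other times.

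The other 3 called windows were low at CT34. On chromosome 7 at 95500001 to 95750000, with 45 probes, the ranks were 71.6 at CT22, 66.3 at CT26, 69.3 at CT30, 54.1 at CT34 and 74.1 at CT46 (difference -18.8, adjusted p = 0.00263, limma). It adjoins the longest constant run. On chromosome 3 at 88750001 to 89000000, with 30 probes, the ranks were 74.9, 63.2, 57.3, 53.1 and 69.5 (difference -19.1, adjusted p = 0.00236, limma). Its log2 ratios were 1.35, 0.67, 0.71, 0.76 and 1.17, so that on that scale CT26 and not CT34 was lowest. On chromosome 10 at 128000001 to 128250000, with 25 probes, they were 74.8, 61.0, 60.5, 55.1 and 69.6 (difference -17.2, adjusted p = 0.0167, limma). In these windows the gap between CT22 and CT46 was 2.51 to 5.42 ranks, against 17.2 to 19.1 for CT34.

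The called windows were sparsely probed. Of the 6, 4 held under 30 probes, against 7.71% of all windows, and their median scatter of probes was 5.09 ranks, against 3.01 over all windows. The part of probe number in these calls was not tested, and with at least 30 probes a window the count was 2. The direction at CT34 against CT22 was the same in line 2 for 2 of the 6 windows (49.3% over all windows) and in Bmal1-/- for 3 of the 6 (51.3%). At 39000001 on chromosome 7, line 2 went from 77.2 to 69.3 and Bmal1-/- from 73.4 to 77.1. At 9750001 line 2 went from 50.9 to 54.6 and Bmal1-/- from 74.1 to 83.1.

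**Figure D5:**
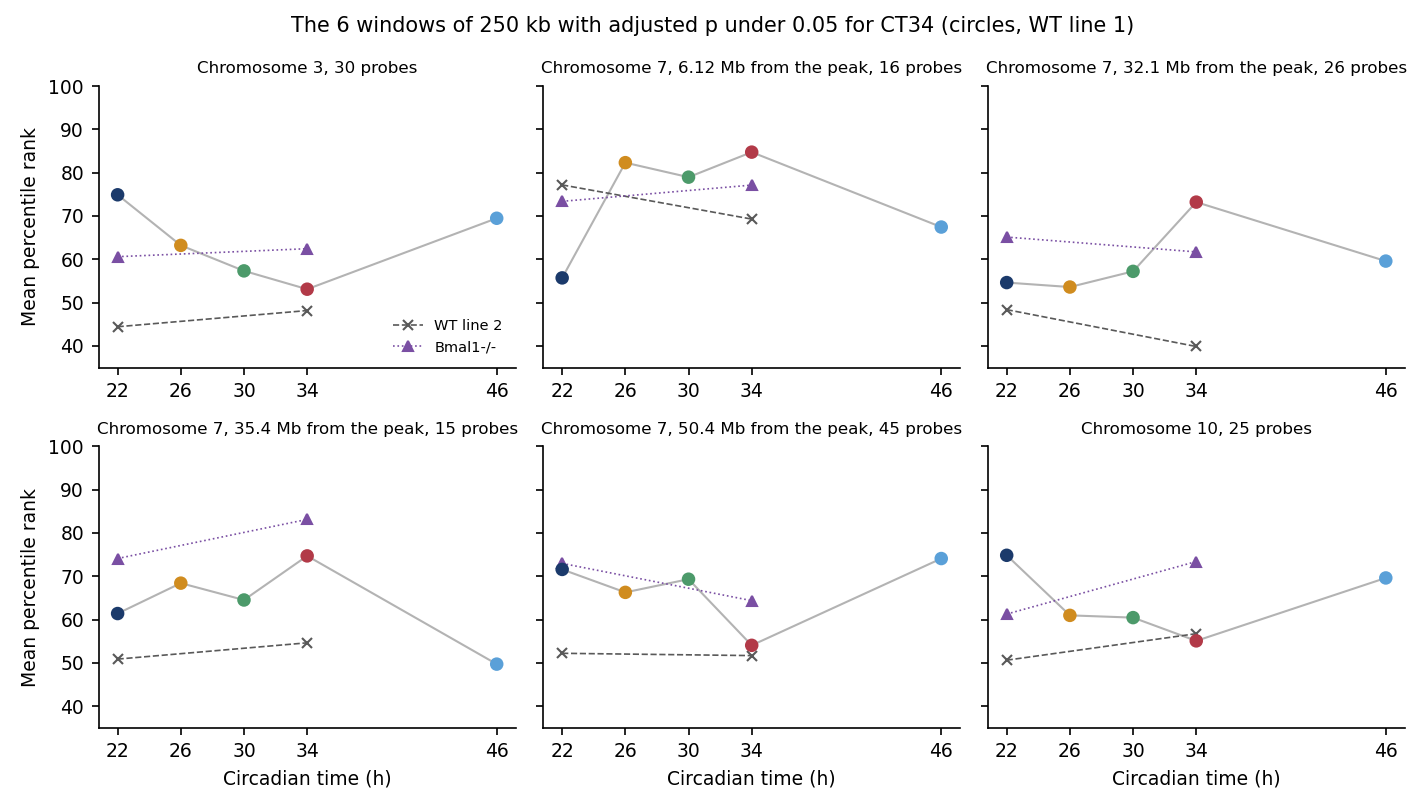
Mean percentile rank of the 6 windows of 250 kb with an adjusted p under 0.05 for CT34 against CT22 and CT46, at 5 circadian times in WT line 1 (circles, 1 array each, colours by time), with line 2 (crosses) and Bmal1-/- (triangles) at CT22 and CT34. CT34 is above both CT22 and CT46 in 3 windows and below both in 3, and the other lines follow the same direction in 2 and 3 of the 6.

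No window passed the test of a 24 h cosine and sine rhythm, at 250 kb (0%) or at 1 Mb (0%). In limma 442 of 9982 windows of 250 kb reached an unadjusted p under 0.05, fewer than the 499.1 that chance gives, and 63 of 2518 windows of 1 Mb, against 125.9. The smallest adjusted p was 0.393, at 10500001 to 10750000 on chromosome 18, a window with ranks of 44.5 at CT22, 68.6 at CT26, 60.6 at CT30, 45.9 at CT34 and 50.1 at CT46. That window was high at CT26 and CT30 only, and it passed the F test over phases (adjusted p = 2.29e-05, limma). At 23500001 to 23750000 on chromosome 17 the ranks were 79.3, 69.5, 58.1, 70.8 and 77.1, lowest at CT30. This window also passed the F test over phases. The rhythm fit leaves 2 residual degrees of freedom, and no array lay between CT34 and CT46. A p that misses the threshold therefore does not show that rhythms were absent.

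Off chromosome 7 the largest range over the 5 times was at 132250001 to 132500000 on chromosome 4, with 66.2 at CT22, 52.4 at CT26, 77.9 at CT30, 73.4 at CT34 and 70.3 at CT46. It was lowest at CT26. A window at 69000001 to 69250000 on chromosome 6 had 49.6, 47.7, 41.4, 66.3 and 55.8, highest at CT34. Both windows were among those called by the F test over phases. At 1 Mb the same region of chromosome 4 (132000001 to 133000000, 142 probes) had the largest range, with 69.2, 57.6, 69.9, 70.9 and 64.3, again lowest at CT26. On chromosome 7 the largest 1 Mb range was at 31000001 to 32000000 (64 probes), from 62.2 at CT46 to 74.9 at CT34, with 69.2 at CT22, 72.4 at CT26 and 69.9 at CT30. There CT34 and CT46 were the 2 extremes, and the contrast of CT34 did not pass (adjusted p = 0.190, limma).

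Other windows of chromosome 7 with a large range did not pass the test of CT34. At 38000001 to 38250000, next to the constant run described above, the ranks were 79.3 at CT22, 78.9 at CT26, 84.0 at CT30, 74.5 at CT34 and 61.9 at CT46. At 48250001 to 48500000 they were 58.8, 63.9, 55.4, 59.1 and 43.7. At 102500001 to 102750000, where the longest constant run ends, they were 40.6, 44.4, 45.1, 47.4 and 61.6. In all 3 windows CT46 alone stood far from the other times, including CT22, and none passed a test. No test compared CT46 with CT22, however. The fits treat both as the same phase, so a departure at CT46 alone counts in part as residual spread. At 69750001 to 70000000 the ranks were 74.6, 81.6, 73.4, 66.3 and 86.0, lowest at CT34 and highest at CT46 (adjusted p = 0.140 for CT34, limma). The 1 Mb window from 70000001 was also lowest at CT34 (72.4, against 78.4 to 82.4 at the other times).

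Off chromosome 7, 3 more windows of 250 kb came near the threshold for CT34. On chromosome 8 at 73750001 the ranks were 57.2 at CT22, 44.9 at CT26, 56.6 at CT30, 44.7 at CT34 and 63.5 at CT46 (limma adjusted p = 0.0606). CT26 was as low there as CT34. On chromosome 19 at 39750001 they were 43.3, 47.1, 46.5, 56.6 and 38.7, and on chromosome 4 at 60000001 they were 52.0, 49.6, 61.7, 64.2 and 45.7, both highest at CT34. None of the 3 had an adjusted p under 0.05 for CT34 in limma. The windows on chromosomes 8 and 4 did pass the F test over phases.

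The changes between times in line 1 were set against the change from CT22 to CT34 in the other lines, as a description across windows. Over 2385 windows of 1 Mb off chromosome 7, CT34 minus the mean of CT22 and CT46 correlated with the change of line 2 at 0.0058 and with that of Bmal1-/- at 0.031. On chromosome 7 beyond 2 Mb (129 windows) the values were -0.200 and -0.035. By this contrast the change of line 1 at CT34 was hardly shared by either line. CT34 minus CT22, the contrast of the other lines, gave -0.023 (line 2) and 0.164 (Bmal1-/-) off chromosome 7. On chromosome 7 it gave -0.149 and 0.023. CT46 minus CT22 gave -0.056 and 0.271 off chromosome 7, and 0.129 and 0.144 on it. The value for Bmal1-/- was thus higher for the 24 h change than for CT34 minus CT22. The highest value was off chromosome 7, for CT30 minus CT26, which correlated at 0.623 with the change of Bmal1-/- and at -0.015 with that of line 2. The SD between those windows was 5.75 ranks at CT26 and 7.65 at CT30, and in Bmal1-/- 4.98 at CT22 and 7.54 at CT34, so both pairs went from a narrower to a wider spread. The part of this in the correlation was not tested. The labels give the times of line 2 as CT22 and CT34, while the names of its arrays carry other hours, which bears on the comparison with line 2.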

How the data were processed

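The members and the lists of windows were chosen with earlier results of these data known. Per the labels' protocols, formaldehyde-fixed chromatin was digested (HindIII), ligated, digested again (Csp6I), closed into circles and amplified outward from Dbp, with samples kept frozen until all had been harvested. The 4C DNA (Cy5) and digested genomic DNA (Cy3) were hybridized to NimbleGen arrays of 2 colours, with no dye swap. The deposited values are log2 ratios, 1 per probe, written by NimbleScan with a biweight mean per array per the file headers; the log base was not checked against single channels, and the build and any background correction are not given here by labels or headers.

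Probes were ranked within each array, which removes scale differences between arrays, and ranks were averaged in windows with at least 15 (250 kb) or 50 (1 Mb) probes. Chromosome 21, with under 1000 probes, counts among the windows off chromosome 7 but gets no value of its own. limma 3.58.1 in R 4.3.3 tested phases, CT34 and a 24 h rhythm (lmFit, eBayes, Benjamini-Hochberg over all windows, two-sided) and was tested on simulated data. No gene was placed in a window: the gene tables at hand are of GRCm38.p6, whose chromosome 1 genes end at 195291439, while the probes reach 197063459. Lists were made of the 5 constant runs with the highest lowest rank, the 5 windows with the largest range, the 5 with the smallest p for CT34 and the 3 for the rhythm. They were made on chromosome 7 and off it, with 3 each for range and CT34 at 1 Mb. The windows named come from these lists, but not every window of the lists is described. The longest runs, the remaining windows called for CT34 and the pattern by side of the peak were chosen after their values were seen. The number of arrays limits the precision. Alternatives covered the measure, ranking, window summary, position and filter, the threshold, the adjustment and each array left out. Windows and agreement were computed in Python 3.11.15 (scipy 1.17.1, numpy 2.4.6, pandas 2.3.3).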

Additional observations from a re-analysis of the deposited data

Results flagged for a closer look

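In 37 groups of 5 values, the gap of the highest or lowest array to its nearest neighbour was tested. In 5 groups it exceeded Dixon's 95% critical value (0.71 of the range). Chance gives about 5% of groups where the 5 values are independent and normal. Here all groups reuse the same 5 arrays, and a mean r holds pairs shared with other arrays. The count of groups is therefore no test. CT26 had the lowest mean r with the other 4 arrays off chromosome 7, at 0.9044 in 1 Mb windows (0.9284 to 0.9377 for the others) and 0.7897 in 250 kb windows (0.8422 to 0.86). It also had the lowest share of top 5% probes on chromosome 1, at 2.605% (2.874% to 2.971% at the other times), and the highest on chromosome 8, at 4.546% (4.048% to 4.183%). CT34 had the lowest share 50 to 100 Mb from the peak on chromosome 7, at 28.68% (30.92% to 31.53%).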

How the results depend on the processing

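No paired analysis was possible because each time of the time course is 1 array and the groups share only 1 replicate number. Of 216 alternatives, 171 were counted as the same, 43 as moved and 2 as turned in sign. The cause was not tested. The same does not mean an equal value, since a difference in r was so counted wherever its sign held. On chromosome 7 at 1 Mb it fell from 0.008594 to 0.0004546 with no minimum of probes, and the 24 h pair from place 2 to place 7. That was counted as the same, as were 20 windows over phases against 27. The 171 also include runs of the CT34 contrast without CT26 or CT30, which cannot alter it. Off chromosome 7 at 250 kb, r of the 24 h pair minus that of CT22 with CT34 (0.001671) was -0.008903 with no minimum of probes and -0.001317 with Spearman's rho. The count of chromosomes (9 of 19 at 250 kb) was 17 with log2 ratios, 14 with shifted windows, 14 with CT34 and CT46 as the 12 h pair and 15 across odd and even probes. Constant windows off chromosome 7 (176 at 250 kb, 75 at 1 Mb) numbered 46 and 18 for the top 2%, 409 and 152 for the top 10%, and 77 and 38 by the share of top 5% probes (chosen after seeing the data). Without each array in turn they ranged from 192 to 219 and from 76 to 83. Separate ranking was not run for constant windows on chromosome 7.

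The 27 windows of 250 kb called over phases became 60 with a trended, robust eBayes, 56 with separate ranking, 77 with no minimum of probes, and 0 with log2 ratios, medians or shifted windows. The 6 called for CT34 became 23 with trended, robust eBayes, 25 with no minimum, 2 with the stricter minimum, and 0 with log2 ratios, medians or shifted windows. With no minimum, 4 windows of 250 kb and 7 of 1 Mb passed the rhythm test. At 1 Mb the count over phases, 0 as reported, was 2 with separate adjustment, 2 with trended, robust eBayes, 54 with log2 ratios, 61 with separate ranking, 1 with medians, 40 with shifted windows, 14 with the stricter minimum and 16 with none. The 1 Mb count for CT34, also 0, was 8 with separate adjustment, 16 with log2 ratios, 1 with separate ranking, 7 with shifted windows and 5 with no minimum. Without 1 array the 250 kb count over phases was 9 to 21. That for the rhythm was 0 to 21, but without CT26, CT30 or CT34 only 3 phases remain and the fit equals that over phases, so only the 0 without CT22 and the 2 without CT46 are tests of a rhythm. Leaving out CT26 or CT30 cannot alter the CT34 contrast, which uses neither. Without CT22 or CT46 the phase and CT34 fits have no residual degrees of freedom and were not run. Probes per window limit the 250 kb values, and 1 array per time limits all.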
